A study of Mus musculus with 20 samples.

Results

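The centromeric flank of the *Lbx1*/*Fgf8* locus, the stretch around *Pax2* from 44440001 to 45250000 on mouse chromosome 19 (mm9), lies on the centromeric side of every engineered rearrangement of this capture Hi-C (cHi-C) study. Its members were all bin pairs of the maps with both bins in this interval, 13203 of the 77028 possible pairs, or 162 of 392 bins of 5 kb. The guide RNA matches closest to it, those of the duplication, begin 1.6 kb past its end, and those of the *Inv2* and *Inv1* inversions 82.3 kb and 361.0 kb past it. Whatever was moved or copied in the mutants therefore lay outside the interval, and its contact pattern was measured 6 times, once in each merged map, on the reference order of sequence.

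The maps came from forelimb and hindlimb buds of E11.5 embryos. The wild-type was C57BL/6J. *Dup* was homozygous for a tandem duplication between guides at 45251631 and 45792742, *Inv1* for an inversion between guides at 45611034 and 45734104, and *Inv2* for a larger inversion between guides at 45332272 and 45792742. *Dup-het* and *Inv1-het* carried 1 copy of the duplication and of the smaller inversion. The labels give every mutant library the background of G4 embryonic stem cells, a hybrid of 129/Sv and C57BL/6 that was edited with CRISPR/Cas9 and used for diploid or tetraploid aggregation, and mouse lines were kept by crosses with C57BL/6. For the *Dup* embryos of another experiment of the study a C57BL/6 background is named instead, so the strain of the *Dup* maps is not settled. Where strain differed from the wild-type, strain and genotype cannot be told apart in a ratio of a mutant to the wild-type. The *Dup-het* library was placed by its title, although its genotype label gives a heterozygous inversion. The wild-type, *Dup*, *Inv1* and *Inv2* maps each merged 4 samples, 3 biological replicates and 1 technical one, *Inv1-het* 3 and *Dup-het* 1. In *Dup*, *Inv1* and *Inv2* the title of the technical replicate carries the same library number as that of a biological one. With 1 map per genotype no variation between embryos could be measured and nothing was tested, and the 95% intervals given below cover counting error only.

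Chromatin in vertebrate nuclei folds into topologically associating domains (TADs), stretches whose parts contact each other more often than they contact their neighbours. The protein CTCF halts the extrusion of DNA loops by cohesin at its binding sites, and pairs of sites that point towards each other often mark the corners of such domains. An insulation minimum is a position across which contact is low, and a loop is a pair of positions that meet more often than their distance alone would give. *Pax2* encodes a paired-box transcription factor of the developing kidney, eye, inner ear and midbrain-hindbrain boundary. Transcripts and CTCF binding were not measured in these maps.

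The flank held 23 annotated gene starts, of which 16 were of protein-coding records. From the centromere, *Scd1*, a fatty acid desaturase, lies from 44468941 to 44482199 on the minus strand, and *Wnt8b*, a Wnt ligand, from 44567962 to 44588763 on the plus strand. *Sec31b*, a coat component of transport vesicles, and *Ndufb8*, a subunit of respiratory complex I, follow on the minus strand with starts at 44620354 and 44629930 (a second record of *Ndufb8* starts at 44627321). *Hif1an*, a hydroxylase that restrains the hypoxia-inducible factor, lies from 44637340 to 44650764 on the plus strand. *Pax2* lies alone among protein-coding genes, from 44830539 to 44912758 on the plus strand. On its telomeric side come *Slf2*, which helps to bring the SMC5/6 complex to damaged DNA, from 45005609 to 45058277, and *Twnk*, the helicase of mitochondrial DNA, from 45080563 to 45087252, both on the plus strand. The annotation used names these genes *Fam178a* and *Peo1*. *Tlx1*, a homeobox gene needed for the spleen, lies near the end of the flank from 45223726 to 45231433 on the plus strand. It is outside the rule for genes to be named and was included after its values were seen.

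The strongest loop anchors and insulation minima described below were searched for a 12-base spelling of the CTCF core, CCANNAGGGGGC, on both strands of the mm9 genome. It occurred 10 times, in 10 of the 162 bins (6.17%). Matches lay in 3 of the 35 bins that form the anchors of the 10 loops below (8.57%) and in 1 of the 12 bins within 10 kb of a minimum (8.33%). The 4 matches at these places are shown, 5′ to 3′ on the strand of the match, with the match in capitals and 9 bases on either side.
plus strand, chr19:44447636-44447665, in the first anchor near the capture edge: cttcatgtaCCACAAGGGGGCgcctatgat
plus strand, chr19:44758816-44758845, in the anchor between *Hif1an* and *Pax2*: caccgaggcCCACCAGGGGGCggtcgcggg
minus strand, chr19:44962352-44962381, in the right anchor of the strongest loop: ctgttctgtCCAGCAGGGGGCgccctctcc
minus strand, chr19:45005600-45005629, at the insulation minimum and the start of *Slf2*: acctgaggaCCATCAGGGGGCgggcctttc
The first pair lies on the plus strand on the centromeric side and the second pair on the minus strand on the telomeric side. This order describes the printed matches only, since on the telomeric side the spelling also occurred on the plus strand, as at 45063553 and 45104734. No match to this spelling lay in the 3 bins that form the left anchor of the strongest loop, centred on 44660001. The looser spelling CCANNAGNNGGC, which also takes every match of the first one, occurred 98 times in 75 bins (46.3%), in 16 of the 35 anchor bins (45.7%) and in 4 of the 12 bins at minima (33.3%). Neither spelling was tested for enrichment, and a match is a string of letters and not a measured binding site.

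The recovered read pairs within the flank numbered 3283046 in the wild-type, 4200570 in *Dup*, 4643936 in *Inv1*, 5180448 in *Inv2*, 1180623 in *Dup-het* and 3184654 in *Inv1-het*. The median bin pair held 78 read pairs in the wild-type, 99 in *Dup*, 132 in *Inv1* and in *Inv2*, 29 in *Dup-het* and 90 in *Inv1-het*. In *Dup-het* 13.5% of bin pairs held fewer than 10 read pairs, against at most 1.71% in the other maps, so single bin pairs of *Dup-het* are the least certain values of the set. The bin at 45165001 was empty in every map, and 2 further bins were empty in *Dup* and *Dup-het*.

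In wild-type limb buds the flank was cut by 2 deep insulation minima, one next to *Hif1an* and one at the start of *Slf2*, with a shallow minimum between them at *Pax2*. The insulation score compares, on the log2 scale, the contacts spanning a position (100 kb windows left and right of it) with their average over the whole flank. The *Hif1an* minimum lay at 44635000, just before the gene's start, with a score of −0.68, which means that contact across it was 62.5% of the mean of the flank. At this position the score was −0.67 in *Dup*, −0.60 in *Inv1*, −0.63 in *Inv2* and in *Dup-het* and −0.68 in *Inv1-het*. All 6 maps had a minimum there or 1 bin further on, at 44640000 in *Inv1* and *Inv1-het*.

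The *Slf2* minimum lay at 45005000, in the bin border just before the start of *Slf2*, with scores of −0.55 in the wild-type, −0.60 in *Dup*, −0.55 in *Inv1*, −0.54 in *Inv2*, −0.52 in *Dup-het* and −0.58 in *Inv1-het*. It was the end of a broad trough. Between 44970000 and 45005000 the score varied by at most 0.067 on the log2 scale in any map. In *Dup-het* the lowest point of the trough was at 44985000 and in *Inv1-het* at 44970000, which is 20 kb and 35 kb from the wild-type position. The trough thus kept its depth in all 6 maps, while its lowest bin border did not keep its place.

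The *Pax2* minimum lay at 44835000, 4.5 kb past the gene's start, and its score was above the mean of the flank. It was 0.12 in the wild-type, 0.11 in *Dup*, 0.20 in *Inv1*, 0.17 in *Inv2*, 0.18 in *Dup-het* and 0.15 in *Inv1-het*. The dip below the lower of its sides was 0.25 deep in the wild-type and 0.13 in *Inv1*, the shallowest. Of the 15 places to check (3 wild-type minima in 5 mutant maps), 13 had a minimum within 10 kb. At a prominence of at least 0.2 in place of 0.1 this fell to 9, since the *Pax2* minimum was then called in the wild-type and *Dup* and in none of the other 4 maps. With windows of 150 kb the *Pax2* minimum was not called in the wild-type, and the *Hif1an* and *Slf2* minima lay within 10 kb of their wild-type place in all 5 mutants, 10 of 10 places.

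Windows of 50 kb gave 5 minima in the wild-type, and 21 of the 25 places in the mutants had one within 10 kb. The *Hif1an* minimum was less fixed than with 100 kb. It lay at 44635000 in the wild-type, *Inv1* and *Inv2*, at 44650000 in *Dup* and *Dup-het* and at 44655000 in *Inv1-het*. The dip at *Pax2* then fell below the mean of the flank in every map, at 44835000, with scores of −0.27 in the wild-type, −0.32 in *Dup*, −0.24 in *Inv1*, −0.28 in *Inv2*, −0.22 in *Dup-het* and −0.30 in *Inv1-het*. The broad trough before *Slf2* had its lowest point at 44970000 in all 6 maps, with scores of −0.56, −0.61, −0.57, −0.53, −0.53 and −0.62 in the same order. This is the telomeric edge of the right anchor bin of the strongest loop described below. A further minimum lay at 45155000, just past *Kazald1*, or at 45150000 in *Inv1*, inside this secreted protein gene, which is named here after its values were seen, with scores of −0.52 in the wild-type and −0.38 to −0.47 in the mutants. The empty bin at 45165001 lies beside it. Another wild-type minimum lay at 44745000, between *Hif1an* and *Pax2*, with a score of −0.046 and a prominence of 0.173. It was called at the same place in the mutants except *Inv1-het*. Minima without a wild-type counterpart lay at 44515000 in *Dup* and at 45080000 in *Dup-het*.

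**Figure D1:**
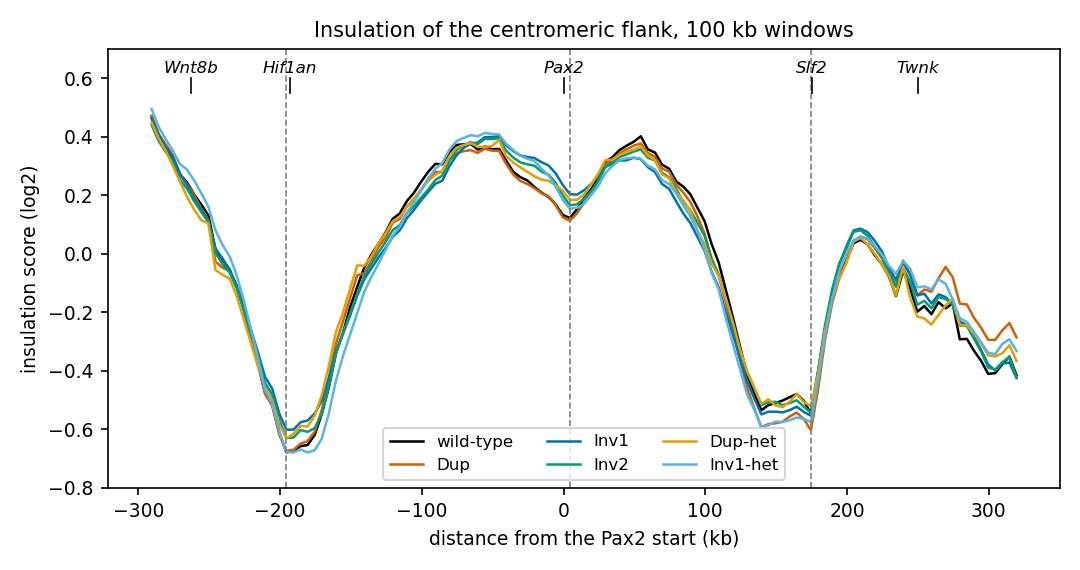
Insulation score (log2, 100 kb windows on either side) against the distance from the *Pax2* start in kb, 1 line per genotype, with the 3 wild-type minima as dashed lines. The 6 lines fall together to −0.60 or lower near *Hif1an* and to −0.52 or lower near *Slf2*, and the dip at *Pax2* stays between 0.11 and 0.20.

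With read pairs balanced within the flank alone, the wild-type had 4 minima, with a further one at 45130000, and its lowest point before *Slf2* lay at 44970000 and not at 45005000, so the place of this border within the trough depended on the balancing.

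The 3 minima of the 100 kb windows divided the flank into 4 segments of unequal gene content. The *Scd1*-*Wnt8b* segment was 195 kb long and held 5 gene starts, the *Hif1an* segment 200 kb with 3 (the *Pax2* start among them, at its telomeric end), the *Pax2* segment, with the body of *Pax2*, 170 kb with 3 noncoding or pseudogene starts and none of a protein-coding gene, and the *Slf2*-*Tlx1* segment 245 kb with 12. Contact was divided by the mean of all flank pairs at the same distance in the same map, so that a value of 1 is the level that distance alone gives. For pairs up to 300 kb apart, the wild-type values within the segments were 1.37 (*Scd1*-*Wnt8b*), 1.15 (*Hif1an*), 1.06 (*Pax2*) and 0.835 (*Slf2*-*Tlx1*).

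Contact between the *Hif1an* and *Pax2* segments was higher than within either of them. It was 1.74 (1.73 to 1.75) in the wild-type, 1.73 in *Dup*, 1.72 in *Inv1*, 1.73 in *Inv2*, 1.73 in *Dup-het* and 1.74 in *Inv1-het*. Pairs within a segment cannot lie further apart than its length, 200 kb or 170 kb, whereas pairs between the segments reached 300 kb. The distances compared were therefore unlike. With pairs up to 150 kb only, the difference was smaller, at 1.23 between the segments against 1.11 within *Hif1an* and 1.06 within *Pax2* in the wild-type. It had the same direction in the other 5 maps. At the outer borders contact between segments was the lower. Contact between *Scd1*-*Wnt8b* and *Hif1an* was 0.630 in the wild-type and 0.611 to 0.665 in the mutants, and that between *Pax2* and *Slf2*-*Tlx1* 0.594 in the wild-type and 0.573 to 0.622 in the mutants. By contact, the 2 middle segments formed a single domain of 370 kb around *Pax2*, from 44635001 to 45005000, and no map departed from this order of values.

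**Figure D2:**
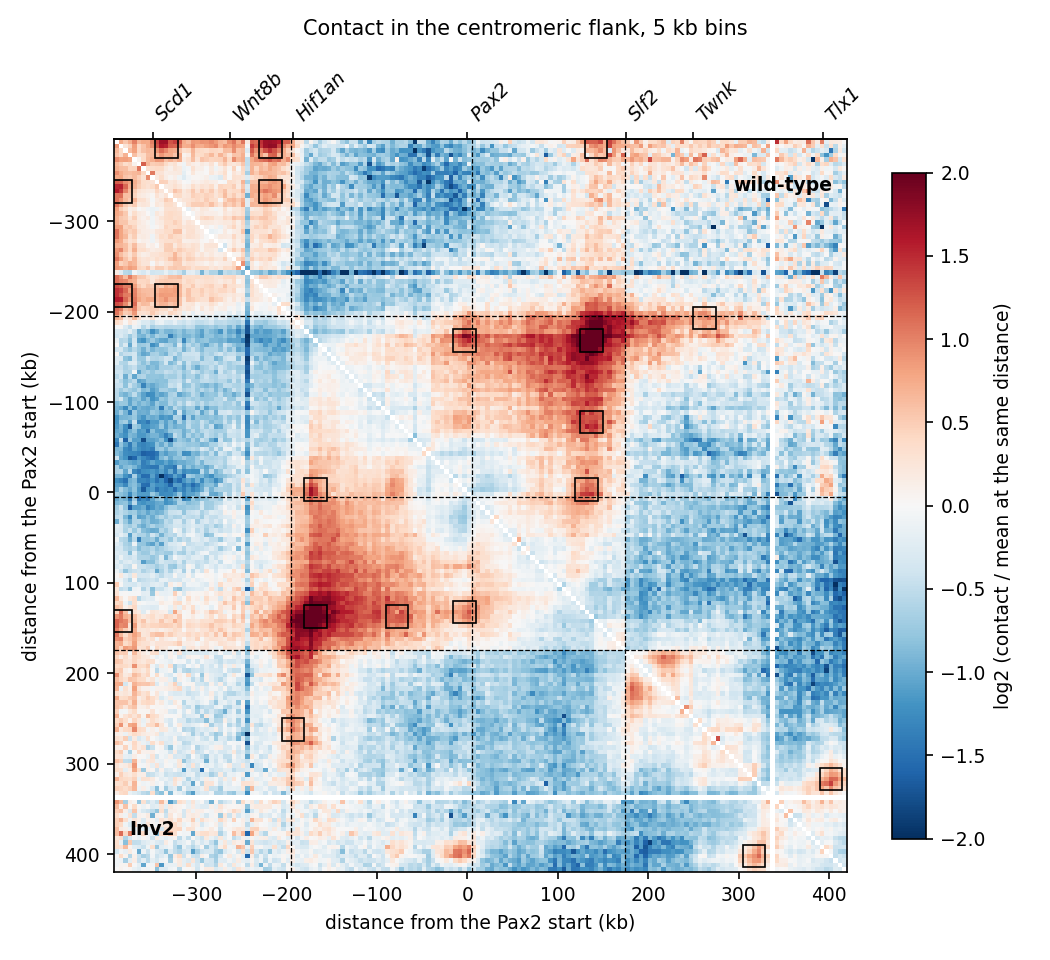
Contact of 5 kb bin pairs relative to the mean at the same distance (log2, colour), against the distance from the *Pax2* start in kb on both axes, with the wild-type above the diagonal and *Inv2* below it. Dashed lines are the wild-type minima and squares the 10 wild-type loops. The darkest square, −168 kb against 137 kb, is the corner of the domain around *Pax2*, with values of 6.37 in the wild-type and 6.07 in *Inv2*, and the thin blue line in *Wnt8b* is a bin that was empty in *Dup* and *Dup-het*.

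The strongest loop of the flank joined the 2 ends of the *Pax2* domain. Loops are squares of 3 × 3 bins centred 50 to 600 kb apart, with their mean contact over the mean at the same distance, and the 10 highest of the wild-type map were taken. Since they were the highest squares of that map, the wild-type values lean upwards, whereas the other 5 maps had no part in the choice. The first loop joined the bins at 44660001 and 44965001, 305 kb apart. Its left anchor lies past the end of *Hif1an* and its right anchor before *Slf2*, so both anchors lie between the 2 deep insulation minima. It stood at 6.37 (6.19 to 6.55) in the wild-type, on 4812 read pairs. The value was 6.24 (6.09 to 6.39) in *Dup*, 5.54 (5.41 to 5.67) in *Inv1*, 6.07 (5.93 to 6.20) in *Inv2*, 5.50 (5.23 to 5.79) in *Dup-het* and 5.84 (5.69 to 6.00) in *Inv1-het*. This square, or one within 25 kb of it, ranked first in each map's own list, and its lowest value was higher than any other loop value of the 6 maps.

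A further anchor of the same domain was the start of *Pax2*. The bin at 44825001, the one before that of the *Pax2* start, met the left anchor at 44660001 with a value of 2.75 (2.65 to 2.86) in the wild-type, 2.69 in *Dup*, 2.09 in *Inv1*, 2.41 in *Inv2*, 2.46 in *Dup-het* and 2.58 in *Inv1-het*. It met the right side, at 44960001, with values of 2.32 (2.23 to 2.41), 2.27, 1.78, 1.97, 2.01 and 2.01 in the same order of maps. The bin at 44750001, which has the plus-strand match printed above in a neighbouring bin, met the right anchor at 44965001 with 2.61 (2.48 to 2.74) in the wild-type, 2.61 in *Dup*, 2.15 in *Inv1*, 2.25 in *Inv2*, 2.45 in *Dup-het* and 2.33 in *Inv1-het*. The own lists of *Dup*, *Inv1*, *Inv2* and *Inv1-het* held no square within 25 kb of the pair at 44750001 and 44965001. As a separate loop this pair thus did not recur in those maps, while *Dup-het* had a square there at rank 2. The loops of this domain shared anchor bins, so their values are not independent of each other.

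A second group of loops belonged to the *Scd1*-*Wnt8b* segment. The bin at 44445001, the second of the captured region, met that at 44610001, inside *Sec31b*, with 3.03 (2.91 to 3.15) in the wild-type and 2.36 to 2.85 in the mutants. It met the bin at 44495001, 50 kb away, with 2.54 in the wild-type and 2.24 to 2.65 in the mutants, and the bins at 44495001 and 44610001 met with 1.85 and 1.73 to 1.93. Because the capture begins 1 bin before 44445001, what lies beyond this anchor was not seen.

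The other loops crossed the minima or lay telomeric of them. The bin at 44445001 met 44970001, 525 kb away and past both the *Hif1an* and the *Pax2* minima, with 1.98 (1.84 to 2.13) in the wild-type and 1.61 to 2.00 in the mutants. The start bin of *Hif1an*, 44635001, met 45090001, just past the end of *Twnk*, with 1.83 (1.72 to 1.95) and 1.68 to 1.81. Within the *Slf2*-*Tlx1* segment, 45145001 met 45230001, 85 kb away and at the end of *Tlx1*, with 2.01 (1.95 to 2.07) and 1.65 to 2.13.

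All 10 loops stayed above 1.5 in each of the 6 maps, and the lowest value was 1.61, in *Dup-het*. Their heights differed between maps. The median of the 10 ratios to the wild-type was 0.983 in *Dup*, 0.857 in *Inv1*, 0.911 in *Inv2*, 0.889 in *Dup-het* and 0.946 in *Inv1-het*. In *Inv1* 9 of the 10 ratios had an interval wholly below 1, in *Inv2* 8, in *Dup-het* and in *Inv1-het* 6, and in *Dup* 1, while 2 of *Dup* lay wholly above. These counts cannot be read as a result about the loops. The choice of the highest wild-type squares leans the ratios downwards, and the same share over all squares of the flank was not taken. The intervals cover counting error only, and the ratios of the flank's tiles, given below, spread more widely than that. With the 10 highest squares of *Inv2* in place of those of the wild-type, the medians were 1.00, 0.901, 0.941, 0.874 and 0.983 in the same order. Each map's own 10 highest squares held 7 (*Inv1*) to 10 (*Dup-het*) of the wild-type loops, counting squares within 25 kb.

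**Figure D3:**
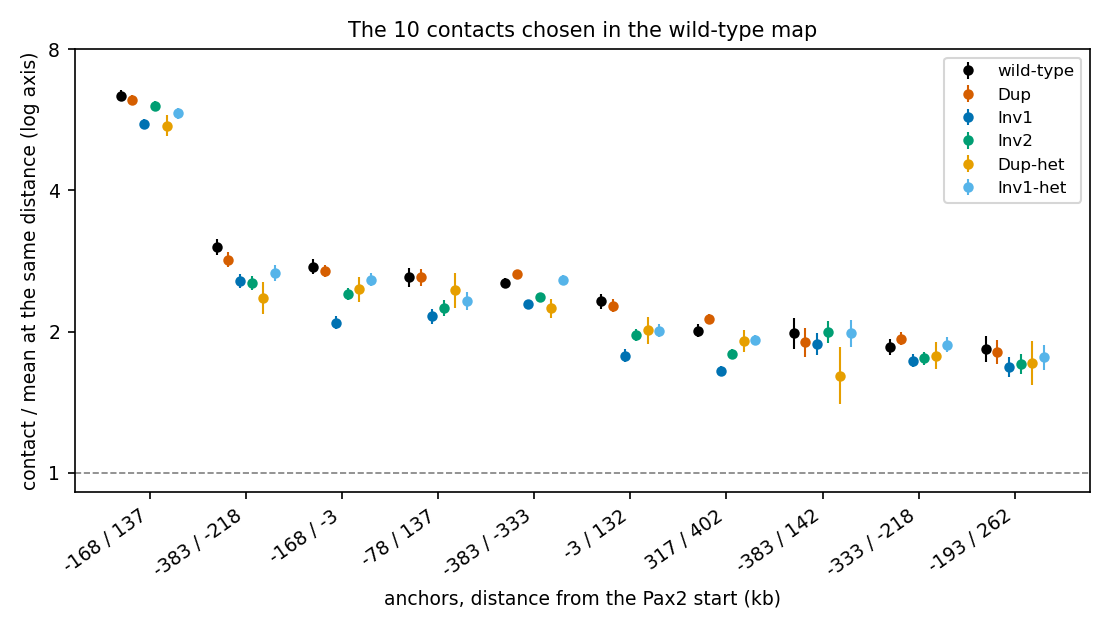
Contact of the 10 wild-type loops over the mean at the same distance (log axis), by the place of their anchors in kb from the *Pax2* start. Points are genotypes and bars 95% counting intervals. The first loop lies between 5.50 and 6.37, above all others, and *Inv1* is lowest in most of the rest.

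Among the 6 genes of the interval's description, the highest contacts between starts were those of *Hif1an* with *Slf2*, *Pax2* and *Twnk*. Outside these 6, the single start bins of *Pax2* and *Tlx1* met with 1.52 (1.12 to 2.08) in the wild-type on 40 read pairs. The value was 1.91 (1.62 to 2.25) in *Inv1* and 1.99 (1.67 to 2.37) in *Inv2*, and both intervals overlap that of the wild-type. In the other mutants that pair stood at 0.991 to 1.26, on only 9 read pairs in *Dup-het*. For single start bins, *Hif1an* and *Slf2*, which lie beside the 2 deep minima, met 370 kb apart with 2.52 (2.22 to 2.87) in the wild-type on 232 read pairs, 2.73 in *Dup*, 2.38 in *Inv1*, 2.62 in *Inv2*, 2.58 in *Dup-het* and 2.58 in *Inv1-het*. This was the highest of the 15 pairs of the 6 genes in each of the 6 maps, although in *Dup-het* *Hif1an* and *Twnk* came close, with 2.48 (1.95 to 3.16) on 67 read pairs. *Hif1an* and *Twnk*, 445 kb apart, met with 1.64 in the wild-type and 1.82 to 2.48 in the mutants, and *Hif1an* and *Pax2* with 1.76 and 1.65 to 2.15. *Slf2* and *Twnk*, neighbours in 1 segment 75 kb apart, met with 1.15 in the wild-type and 0.950 to 1.34 in the mutants.

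The *Pax2* start met *Scd1* and *Twnk* less often than distance alone gives. With *Twnk* its value was 0.601 (0.437 to 0.826) in the wild-type on 38 read pairs and 0.511 to 0.851 in the mutants. With *Scd1* it was 0.637 on 25 read pairs in the wild-type, and with squares of 3 × 3 bins 0.534 in the wild-type and 0.465 to 0.524 in the mutants. With *Wnt8b* the single bins gave 1.02 (0.787 to 1.33) in the wild-type, and the square 0.822 in the wild-type and 0.724 to 0.808 in the mutants. *Slf2*, at the edge of the domain, met the *Pax2* start with 0.995 in the wild-type square and 0.791 to 0.943 in the mutants, and with 1.23 (1.02 to 1.47) for single bins in the wild-type.

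Of the *Pax2* start's contact signal in the flank, with 10 kb on either side left out, 42.7% (42.0 to 43.4, Wilson) lay in the *Hif1an* segment and 37.6% (36.9 to 38.3) in the *Pax2* segment in the wild-type. In the mutants the shares were 42.9% to 45.4% and 34.2% to 38.8%. The start bin thus divided its contacts between both sides of the minimum at which it lies. Shares in the own segment were above the 42.7% of *Pax2* for *Scd1* (75.4% in the wild-type and 71.7% to 75.9% in the mutants), *Wnt8b* (67.6% and 64.8% to 68.1%), *Twnk* (65.7% and 63.3% to 68.0%) and *Slf2* (46.7% and 45.1% to 48.3%), and below it for *Hif1an* (29.98% and 29.4% to 30.2%). The start bins of *Pax2*, *Slf2* and *Hif1an* touch a segment border. The shares were not divided by the mean at each distance, so they also depend on where a start lies in its segment.

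The profile of the *Pax2* start had 4 peaks above 1.2 in the wild-type, each the highest square within 25 kb. They lay at −168 kb, −78 kb, 132 kb and 397 kb from the start, with squares of 2.73, 1.60, 2.31 and 1.29. The first and the third are the anchors of the domain corner, and in the mutants they were 2.15 to 2.63 and 1.77 to 2.27. The peak at −78 kb was 1.53 to 1.73 in the mutants. The peak at 397 kb, inside *Tlx1*, differed more between maps, at 1.16 in *Dup*, 1.66 in *Inv1*, 1.74 in *Inv2*, 1.11 in *Dup-het* and 1.00 in *Inv1-het*.

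**Figure D4:**
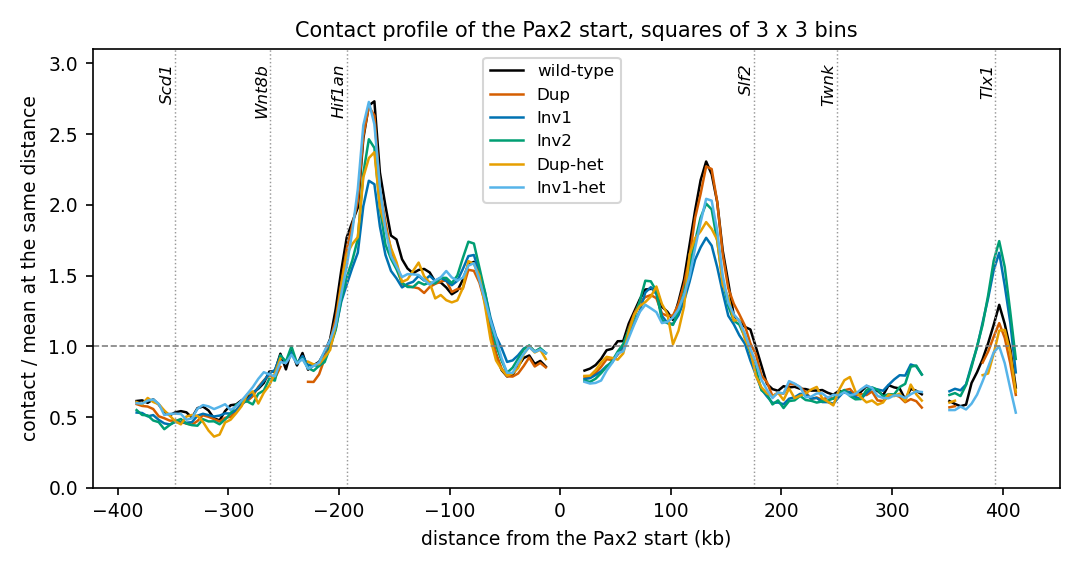
Contact of the *Pax2* start bin with the flank relative to the mean at the same distance (squares of 3 × 3 bins), against the distance from the start in kb, 1 line per genotype. The lines share peaks at −168 kb, −78 kb and 132 kb, and at the *Tlx1* peak *Inv1* and *Inv2* reach 1.66 and 1.74 against 1.29 in the wild-type. Gaps are the viewpoint and squares with too few filled bins.

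The question of how far the flank stayed the same while the neighbouring sequence was rearranged was asked of tiles of 5 × 5 bins (25 kb), with each mutant divided by the wild-type after both were divided by their own mean at each distance. More than 25% above the wild-type, or below it by the same factor, were 0 of 493 tiles in *Dup*, 2 of 496 in *Inv1* (0.403%), 3 of 496 in *Inv2* (0.605%), 4 of 493 in *Dup-het* (0.811%) and 4 of 496 in *Inv1-het* (0.806%). Over the tiles of the whole map, the rearranged intervals included, the share past this limit was 15.3% in *Dup*, 8.77% in *Inv1*, 25.8% in *Inv2*, 14.6% in *Dup-het* and 8.97% in *Inv1-het*. In the telomeric flank from 45795001 to 46400000, which the rearrangements also leave in place, it was 2, 7, 1, 2 and 0 of 276 tiles. The low count was thus not particular to the centromeric flank. The tiles of the whole map also lay further apart and held fewer read pairs, a median of 881 in *Dup* against 2303 in the flank, and the mean at each distance was taken over each region's own pairs.

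The spread of the flank's ratios was small and above the counting error. The standard deviation of the log2 ratio was 0.086 in *Dup*, 0.11 in *Inv1*, 0.10 in *Inv2* and *Dup-het* and 0.11 in *Inv1-het*, against median counting errors of 0.045, 0.043, 0.042, 0.066 and 0.046. Between 77.8% (*Inv1-het*) and 88.0% (*Dup*) of tiles lay within a ratio of 1.1 of the wild-type. The lowest ratio of any tile was 0.764, in *Inv1-het*, and the highest 1.34, in *Inv2*. Over single bin pairs at least 10 kb apart, the log2 contact relative to distance of 2 maps correlated with Pearson's r between 0.794 and 0.933 (12391 to 12721 pairs shared). These are correlations across bin pairs, which share bins and are not replicates. The 5 pairs of maps that include *Dup-het*, the shallowest map, had the 5 lowest values, 0.794 to 0.824, and *Inv1* and *Inv2* the highest.

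**Figure D5:**
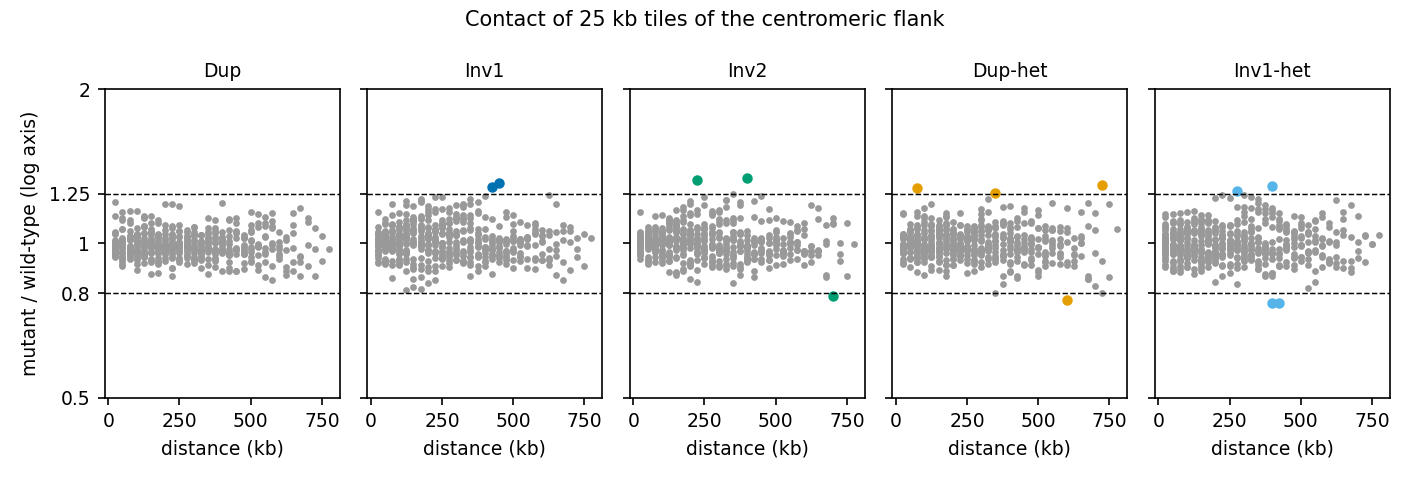
Mutant over wild-type contact (log axis) of the 25 kb tiles of the flank against the distance between the tiles in kb, 1 panel per mutant. Dashed lines are 25% above the wild-type and the same factor below, and coloured points are the tiles past them, 0 in *Dup*, 2 in *Inv1*, 3 in *Inv2* and 4 each in *Dup-het* and *Inv1-het*.

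The tile at the *Tlx1* end of the flank entered 5 of the 13 called pairs. They were 1 each in *Inv1*, *Inv2* and *Dup-het*, above the wild-type, and 2 in *Inv1-het*, below it. In each mutant this tile was part of 31 of the 493 or 496 pairs of tiles, and its share of the calls was not tested. Its pair with the tile of the *Pax2* start (44815001 to 44840000 against 45215001 to 45240000) had a ratio to the wild-type of 1.34 (1.28 to 1.40) in *Inv2*, the highest of 496 tiles, and of 1.24 (1.18 to 1.30) in *Inv1*, the fourth highest. In *Inv1-het* it was 0.765 (0.725 to 0.809), the second lowest. In *Dup* and *Dup-het* the ratios were 0.884 (0.837 to 0.934) and 0.879 (0.811 to 0.953). Relative to distance, the contact was 1.22 in the wild-type, 1.08 in *Dup*, 1.51 in *Inv1*, 1.63 in *Inv2*, 1.07 in *Dup-het* and 0.931 in *Inv1-het*. The homozygous inversions thus stood above the wild-type and the other 3 mutants below it. The 13 called pairs did not otherwise recur: no other pair of tiles was called in more than 1 mutant, and this one passed the limit in *Inv2* and *Inv1-het* in opposite directions.

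None of the other calls joined the start tiles of 2 of the named genes. In *Inv1* both joined the tile of the noncoding *Gm17704*, 44765001 to 44790000, with 45190001 to 45215000 (1.29) and with the *Tlx1* tile (1.31). In *Inv2* a pair from 44965001 and 45190001, 225 kb apart, reached 1.33, and the *Scd1* tile with 45165001 to 45190000, which includes the empty bin, stood at 0.792. The 4 calls of *Dup-het* rested on 156 to 1222 read pairs. In *Inv1-het* 2 pairs from the *Scd1*-*Wnt8b* segment were higher, at 1.27 and 1.29, and 2 pairs with *Tlx1* lower.

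The decay of contact with distance was alike in outline. Of the read pairs between different bins of the flank, 16.002% in the wild-type joined neighbouring bins, 17.002% in *Dup*, 14.3% in *Inv1*, 16.3% in *Inv2*, 14.2% in *Dup-het* and 14.2% in *Inv1-het*. The share at 400 kb or more was 5.57% (5.55 to 5.60, Wilson) in the wild-type, 5.30% in *Dup*, 6.31% in *Inv1*, 5.99% in *Inv2*, 6.18% in *Dup-het* and 5.73% in *Inv1-het*. Long-range pairs were thus a larger share in *Inv1*, *Inv2*, *Dup-het* and *Inv1-het* than in the wild-type, and a smaller one in *Dup*.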

How the data were processed

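Capture Hi-C libraries of E11.5 mouse limb buds were made with DpnII, and the authors trimmed reads to 50 bases where needed, mapped them with HiCUP and Bowtie2 2.4.2 to mm9 and merged replicates. With Juicer tools 1.19.02 they made 5 kb maps (mapping quality of at least 30) balanced by Knight-Ruiz (KR). The *Dup* and *Dup-het* maps used here were instead balanced by LOIC (stated for *Dup* to be run with the Python package iced), which leaves copy number effects in place. For *Dup-het* the copy number entered in LOIC was not given in the sources used. The deposited values are this balanced contact signal. The 3 subtraction maps hold the authors' own comparisons and were not used.

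Factors per bin were solved for each map, which gave whole read pairs within 0.01. The *Dup* and *Dup-het* maps were then balanced to equal bin totals (400 iterations). Contact was divided by the mean of flank pairs at the same distance. Insulation minima had a prominence of at least 0.1 and a spacing of 50 kb. Loops needed 100 read pairs, 7 of 9 filled bin pairs and no higher square within 25 kb. Intervals of 95% take read pairs as independent, and for shares are Wilson intervals. Python 3.11.15, numpy 2.4.6 and scipy 1.17.1 were used, and the steps were tested on simulated data.

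Named genes were those of the interval's description (*Scd1*, *Wnt8b*, *Hif1an*, *Pax2*, *Slf2*, *Twnk*) and those starting within 10 kb of a minimum or of an anchor of the 3 strongest loops, which added *Sec31b* and *Ndufb8*. Other genes, and the 2 motif spellings, were chosen after values were seen. The interval, lists and settings were chosen with earlier results of these data known. Gene positions came from GENCODE vM1. Alternative windows, squares, tiles, folds, distance limits and balancing were tried.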

Additional observations from a re-analysis of the deposited data

Results flagged for a closer look

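Contact between the *Pax2* and *Tlx1* start bins (squares of 3 × 3 bins, 390 kb apart) moved in opposite directions against the wild-type in the homozygous and the heterozygous map of the same inversion. It was 1.34 times the wild-type value in *Inv1* (1.23 to 1.45) and 0.831 times in *Inv1-het* (0.754 to 0.917). Relative to the mean at the same distance it stood at 1.15 in the wild-type, 1.54 in *Inv1* and 0.957 in *Inv1-het*, on 709, 2091 and 934 read pairs. Each is 1 merged map, and the difference between *Inv1* and *Inv1-het* was not tested.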

How the results depend on the processing

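No paired analysis was possible because each genotype is 1 merged map, and for the same reason no replicate could be left out. Of the 71 alternatives, 49 left a value within its interval or a count within 1.5 times, 22 moved it and 0 reversed it. The interval was the counting interval, except for the medians of the 10 loop ratios, where it was their standard deviation on either side. A reversal could not be recorded for counts, for the share at 400 kb or more, or where the interval held 1. Windows of 50 kb gave 5 wild-type minima in place of 3, and read pairs balanced within the flank alone gave 4, with the *Slf2* minimum at 44970000. At a prominence of 0.2 the *Pax2* minimum was not called in *Inv1*, *Inv2*, *Dup-het* and *Inv1-het*. The strongest loop (6.37) was 5.14 with squares of 5 × 5 bins, 8.06 with the mean at each distance taken from all pairs of the map and 6.12 with read pairs balanced within the flank alone. Contact between the *Hif1an* and *Pax2* segments (1.74) was 1.70 with that balancing and 1.23 with pairs up to 150 kb. A fold of 1.5, and tiles of 10 × 10 bins, each left 0 called tiles in *Inv1*, *Inv2*, *Dup-het* and *Inv1-het*, and balancing within the flank gave 4 in *Inv1* in place of 2. The share of pairs at 400 kb or more (5.57% in the wild-type) was 5.84% of the deposited signal. The ratio of *Pax2*-*Tlx1* contact to the wild-type, tried under alternatives added after seeing the data, was above 1 throughout in *Inv1* (at most 1.35) and in *Inv2* (1.31 to 1.39) and below 1 throughout in the others, 0.651 to 0.838 in *Inv1-het*, 0.770 to 0.911 in *Dup-het* and 0.828 to 0.927 in *Dup*. The causes were not tested. Depth limited single bin pairs most in *Dup-het*, and the spread between embryos is unknown in every map.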
